A study of Homo sapiens with 6 samples.

Results

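The genes described here encode the machinery of homologous recombination and of the Fanconi anaemia pathway, measured in MDA-MB-231 breast cancer cells carrying hairpins against S100A10. A list of 34 genes with known roles in these pathways was matched by gene symbol to the 16965 probe sets of the arrays, and 28 were measured, each by 1 probe set. The other 6, BRCA2, RAD51B, RAD54B, RBBP8, FANCA and FANCD2, were not analysed here. MDA-MB-231 is an established human triple-negative breast cancer line. Lentivirus had delivered shS100A10_5 or shS100A10_1, which both target S100A10, or the control hairpin shNCT, and each of these 3 groups has 2 arrays. Every culture received 10% serum and puromycin at 2.5 µg/ml, so the controls were under the same selection, and the labels do not say whether the cells were pools or single clones. Biotin-labelled total RNA was hybridised to whole-transcript arrays, and the values are normalized intensities on a linear scale. Whether replicate arrays stem from separate cultures is not stated in the labels; p-values therefore reflect the array-to-array spread alone, possibly a technical one, and 2 arrays per group limit the precision.

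Homologous recombination repairs a DNA double-strand break by copying the sister chromatid, and so works mainly in S and G2 phase. The broken ends are sensed and trimmed, a recombinase filament is loaded on the single strand with the help of BRCA1, PALB2, BRCA2 and the recombinase's paralogs, and the joined molecules are then resolved. The Fanconi pathway acts where an interstrand crosslink blocks the replication fork: a nuclear core complex attaches ubiquitin to FANCI and FANCD2, which then bring in nucleases and the recombination factors. Loss of several of these genes is known in breast cancer for sensitising cells to crosslinking drugs and to PARP inhibitors.

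The arrays were first checked against their labels. S100A10 intensity was 13565 and 9460.5 with shS100A10_5, 1969 and 1545 with shS100A10_1, and 88860 and 92938 with shNCT. Its log2 change was -3.004 with shS100A10_5 (SE 0.21) and -5.70 with shS100A10_1 (SE 0.21; limma, adjusted p = 0.000442 and 1.71e-06), so the shS100A10_5 cells kept more S100A10 signal. All 5 defining markers of this line (VIM, CD44, MSN, CAV1 and AXL) were measured and 0 changed by limma; their summed intensity was 207168 to 214214 with shS100A10_5, 227688 to 232593 with shS100A10_1 and 209340 to 212912 with shNCT. Among markers of other cells, the 5 measured leukocyte genes summed to 285 to 349, 296 to 343 and 237 to 243 in the same order of groups, with LYZ higher with both hairpins (limma, adjusted p = 0.00865 and 0.00869). By limma 0 of 7 luminal markers and 0 of 4 fibroblast markers changed. Of the luminal markers, CDH1 and FOXA1 were below the lower quartile of all probe sets. The 7 together were not dim, with sums of 63251 to 76346, 66434 to 67881 and 72749 to 73775 in the same order of groups. Replicate 2 of shS100A10_5 stood apart: on the first principal component it lay at 41.1, against 18.7 for replicate 1 and -18.2 to -10.0 for the 4 other arrays, and its deviation from the mean of all arrays followed gene span across all genes (Spearman's rho 0.247, against -0.207 to 0.035 on the others). Results that rest on this array are given with and without it.

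With shS100A10_5, 2 of the 28 changed by limma at an adjusted p under 0.05, which is 7.14% of them against 3.18% of all probe sets: RAD50, which holds broken ends together, rose 1.99-fold, and XRCC3, a paralog that supports the recombinase filament, fell by 0.71 on the log2 scale. Of all probe sets 1.43% rose and 1.75% fell, and at an unadjusted p under 0.05 there were 7 members against 21% of all. With shS100A10_1, 0 of the 28 changed, against 0.189% of all probe sets, and 3 passed at an unadjusted p under 0.05, which 8.44% of all probe sets did. Between the hairpins, shS100A10_5 against shS100A10_1, 0 of the 28 differed at the threshold, against 2.91% of all probe sets, and 7 at an unadjusted p under 0.05 (19.9% of all). Both calls with shS100A10_5 were lost without its replicate 2 and without either shNCT array. Each of these fits leaves 1 array in a group, so the loss is not a result about these genes alone. Their log2 changes in these fits were 0.72 to 1.05 for RAD50 and -0.73 to -0.69 for XRCC3.

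The median log2 change was -0.01 with shS100A10_5 and -0.09 with shS100A10_1, against 0.02 and 0.01 over all probe sets, and 0.06 between the hairpins, against 0.02. With shS100A10_5, 12 members had a positive change and 16 a negative one, from -0.98 for FANCG to 0.99 for RAD50. With shS100A10_1 the split was 11 and 17, from -0.64 for ATR to 0.47 for FANCL. The median size of the change, without its sign, was 0.30 with shS100A10_5 and 0.21 with shS100A10_1, against 0.22 and 0.15 over all probe sets. The hairpin arrays did not overlap the control arrays for 15 members with shS100A10_5 (50.5% of all probe sets) and for 12 with shS100A10_1 (42.4%). Both comparisons use the same control arrays.

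**Figure D1:**
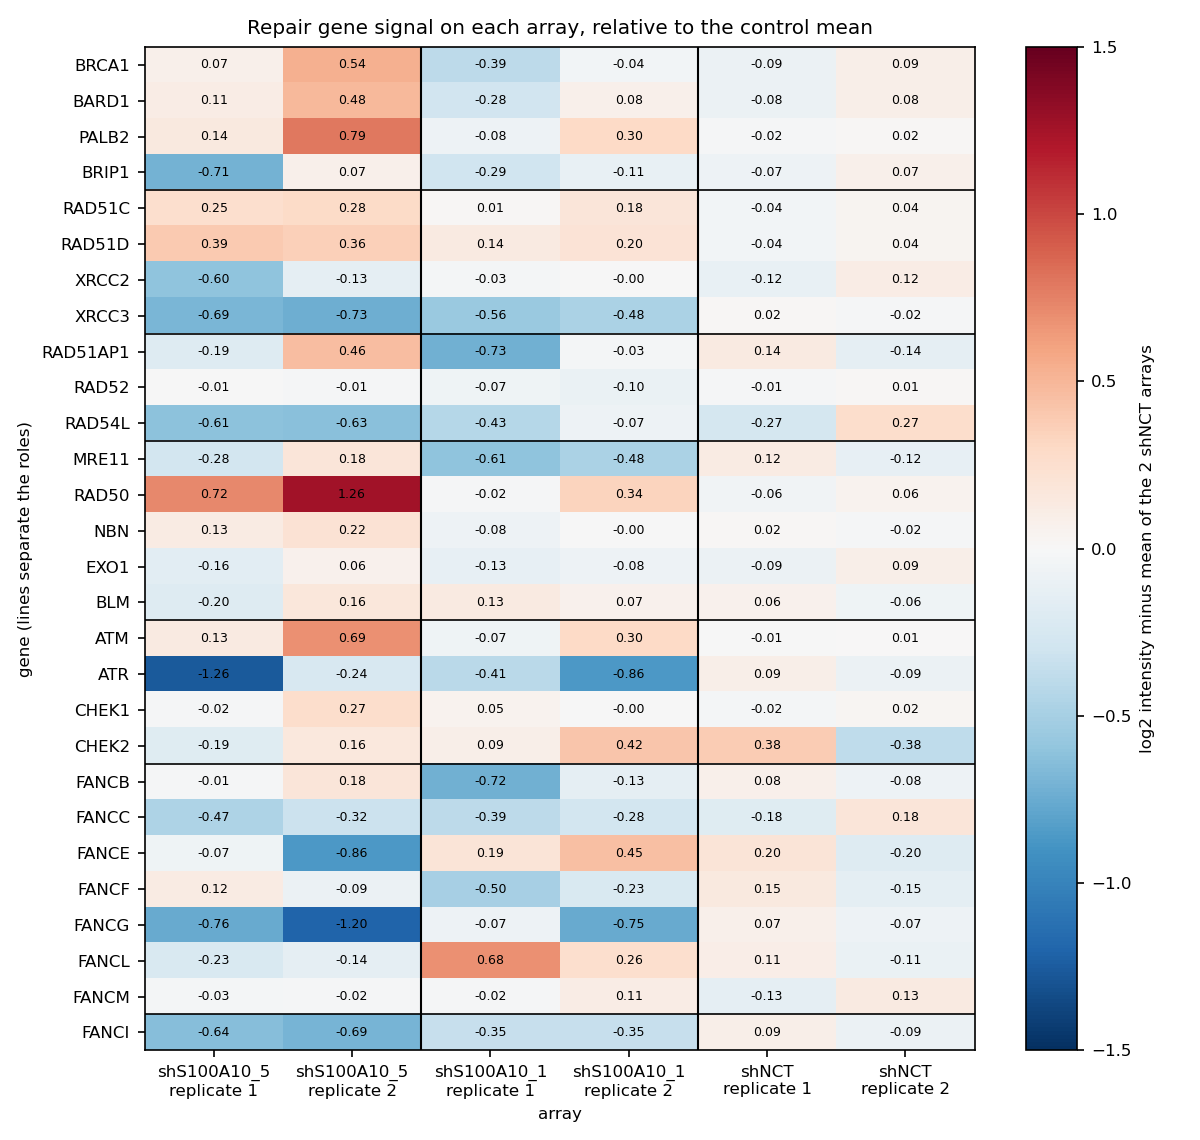
Log2 intensity of each of the 28 measured genes (rows, in blocks by role) on each array (columns), minus the mean of the 2 shNCT arrays; red is higher and blue lower. RAD50 is at 0.72 and 1.26 on the shS100A10_5 arrays, XRCC3 at -0.69 and -0.73 there and at -0.56 and -0.48 on the shS100A10_1 arrays, and FANCG at -0.76 and -1.20 on the shS100A10_5 arrays.

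Promoter sequence is shown for the 4 members with the smallest p-values that had a window in the RefSeq table used (GRCh38.p14): RAD50 and XRCC3, which passed the threshold, and FANCG and FANCL, which came closest among the others with a window. Each sequence is the 250 bases before the start of the gene, 5′ to 3′ on the gene's strand. RAD50 lies on the plus strand at chr5:132556727-132556976, XRCC3 on the minus strand at chr14:103715452-103715701, FANCG on the minus strand at chr9:35079943-35080192 and FANCL on the minus strand at chr2:58241326-58241575. Capitals mark the letters searched, on either strand: CCAAT, known as the NF-Y box, and the E2F-like letters, common before genes of the cell cycle. The E2F-like letters were TTCCCGC or the variant that reads TTGGCGC, another that reads TTCGCGC, and a last one that reads TTGCCGC.
RAD50: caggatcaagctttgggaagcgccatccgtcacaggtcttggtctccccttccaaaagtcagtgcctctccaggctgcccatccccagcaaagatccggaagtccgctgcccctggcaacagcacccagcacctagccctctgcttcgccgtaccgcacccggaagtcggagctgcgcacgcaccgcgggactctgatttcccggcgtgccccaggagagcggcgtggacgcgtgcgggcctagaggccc
XRCC3: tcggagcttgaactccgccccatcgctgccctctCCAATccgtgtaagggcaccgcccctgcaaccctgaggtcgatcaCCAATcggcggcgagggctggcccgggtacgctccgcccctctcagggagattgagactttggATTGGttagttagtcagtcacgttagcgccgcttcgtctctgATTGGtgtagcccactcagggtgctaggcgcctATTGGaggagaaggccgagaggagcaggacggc
FANCG: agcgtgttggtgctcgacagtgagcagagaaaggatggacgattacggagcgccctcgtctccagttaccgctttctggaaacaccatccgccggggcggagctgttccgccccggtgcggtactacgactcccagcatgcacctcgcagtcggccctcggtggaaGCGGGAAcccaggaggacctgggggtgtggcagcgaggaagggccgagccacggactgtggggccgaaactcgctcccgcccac
FANCL: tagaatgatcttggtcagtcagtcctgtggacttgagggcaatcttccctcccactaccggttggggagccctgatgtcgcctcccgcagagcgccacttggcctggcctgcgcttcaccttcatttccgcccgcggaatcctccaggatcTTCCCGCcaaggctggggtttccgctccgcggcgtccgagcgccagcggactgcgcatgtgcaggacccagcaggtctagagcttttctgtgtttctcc

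The XRCC3 window holds CCAAT 5 times, ending 212 and 167 bases before the start on the gene's strand and 104, 62 and 29 bases before it on the opposite strand. Such a count or more is found in 112 of the promoter windows in the table, or 0.319%. That count was taken from the XRCC3 window itself, and a link to the change of XRCC3 was not tested. FANCG carries TTCCCGC once on the opposite strand, 84 to 78 bases before the start, and FANCL carries it once on the gene's strand, 99 to 93 bases before the start. The RAD50 window held none of the letters searched. Of the 28 measured members, 26 matched 36 windows in the table; E2F-like letters were in 11 of these (30.6%, against 10.9% of all 35116 windows), CCAAT in 17 (47.2%, against 32.0%), and TTTGAA or TTCGAA, the core of the cell cycle CHR element, in 3 (8.3%, against 14.3%). The 9 members with E2F-like letters were BLM, BRCA1, FANCC, FANCG, FANCL, RAD51AP1, RAD51D, RAD52 and RAD54L. Their log2 changes with shS100A10_5 ran from -0.98 to 0.38, with 6 negative and 3 positive. These matches describe the sequence and are not evidence of binding.

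BRCA1 and its partners load the recombinase. BRCA1, a ubiquitin ligase and scaffold, had intensities of 306 and 421 with shS100A10_5, 221 and 283 with shS100A10_1, and 272 and 309.8 with shNCT. The control arrays overlapped those of both hairpins. Its log2 change was 0.30 with shS100A10_5 (95% interval -0.17 to 0.78) and -0.21 with shS100A10_1 (limma, adjusted p = 0.454 and 0.865). BRCA1 was 0.52 higher with shS100A10_5 than with shS100A10_1 and those arrays did not overlap, but the difference did not pass the threshold (limma, adjusted p = 0.211, unadjusted p = 0.0341). PALB2, the bridge between BRCA1 and BRCA2, read 906 and 1417 with shS100A10_5, 777 and 1008 with shS100A10_1, and 809 and 833 with shNCT. Both shS100A10_5 arrays were above both controls, with a log2 change of 0.46 (95% interval -0.05 to 0.98; limma, adjusted p = 0.289), and the arrays lay 0.14 and 0.79 above the shNCT mean. BARD1, the obligate partner of BRCA1 in its ligase, had log2 changes of 0.30 with shS100A10_5 and -0.10 with shS100A10_1, and the helicase gene BRIP1 had -0.32 and -0.20. For this role the median change was 0.30 with shS100A10_5 and -0.15 with shS100A10_1, and 0 of 4 passed with either; without shS100A10_5 replicate 2 the shS100A10_5 median was 0.09.

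The paralogs of the recombinase, which form small complexes that stabilise its filament, had changes of both signs. XRCC3 had intensities of 719 and 699 with shS100A10_5, 786 and 832 with shS100A10_1, and 1175 and 1141 with shNCT. All 4 hairpin arrays were below both controls, and the replicates of each group were close, with SDs of 0.03, 0.06 and 0.03 on the log2 scale. With shS100A10_5 XRCC3 fell by 0.71 (SE 0.16, 95% interval -1.07 to -0.34; limma, adjusted p = 0.0486). With shS100A10_1 the change was -0.52 (95% interval -0.88 to -0.15), which did not pass over all probe sets (limma, adjusted p = 0.377, unadjusted p = 0.0102). The difference between the hairpins was -0.19 (95% interval -0.56 to 0.17; limma, adjusted p = 0.569). The XRCC3 call sat at the threshold: the size stayed between -0.73 and -0.69 in every fit that left out 1 array, but the adjusted p was then 0.0561 to 0.230, with 0.182 for the fit without shS100A10_5 replicate 2.

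RAD51D, whose protein pairs with XRCC2 in another paralog complex, read 128 and 125 with shS100A10_5, 107 and 112 with shS100A10_1, and 94.7 and 100.4 with shNCT. The 3 groups did not overlap, and the order was the reverse of that of XRCC3. The log2 change was 0.38 with shS100A10_5 and 0.17 with shS100A10_1 (limma, adjusted p = 0.225 and 0.863). XRCC2 itself had changes of -0.37 and -0.02, and RAD51C, which belongs to both paralog complexes, 0.26 and 0.10. With shS100A10_5 all 4 measured paralogs lay outside the range of the controls, 2 above (26.7% of all probe sets) and 2 below (23.8%), and their median change was -0.05.

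Among the cofactors of strand exchange and annealing, 0 of 3 changed with either hairpin. RAD54L, the motor protein that helps the filament invade the sister duplex, had intensities of 369 and 365 with shS100A10_5, 419 and 537 with shS100A10_1, and 470.3 and 679 with shNCT. The shS100A10_5 arrays were the lowest, and the controls differed widely from each other. The change was -0.62 with shS100A10_5 (95% interval -1.10 to -0.14; limma, adjusted p = 0.135, unadjusted p = 0.0161) and -0.25 with shS100A10_1 (limma, adjusted p = 0.831). RAD51AP1, which binds the filament and promotes pairing of the strands, read 942 and 1475 with shS100A10_5, 649.5 and 1049 with shS100A10_1, and 1179.7 and 978 with shNCT. Its arrays overlapped in all 3 comparisons, and its changes of 0.13 and -0.38 had an SE of 0.27. RAD52, a mediator of single-strand annealing, had changes of -0.01 and -0.08 (SE 0.16).

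Break sensing begins with the MRN complex of MRE11, RAD50 and NBN, of which 1 subunit changed. RAD50, the complex's long coiled-coil ATPase, had intensities of 5279 and 7652 with shS100A10_5, 3161 and 4036 with shS100A10_1, and 3074 and 3320.2 with shNCT. Both shS100A10_5 arrays were above all 4 others, while the shS100A10_1 arrays overlapped the controls. RAD50 rose by 0.99 on the log2 scale with shS100A10_5 (SE 0.22, 95% interval 0.51 to 1.48; limma, adjusted p = 0.0419), and had a change of 0.16 with shS100A10_1 (limma, adjusted p = 0.911). The difference between the hairpins was 0.83 (95% interval 0.35 to 1.32) and did not pass (limma, adjusted p = 0.0711). Without shS100A10_5 replicate 2 the change from control was 0.72 with an adjusted p of 0.202, and without replicate 1 it was 1.26 with an adjusted p of 0.0357. RAD50 spans 89373 bases and XRCC3 17835; after a smooth fit against gene span was subtracted on each array, the changes were 0.90 and -0.70 (limma, adjusted p = 0.0481 and 0.0496).

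MRE11, the nuclease of the complex, showed another pattern. It read 3508 and 4824 with shS100A10_5, 2795 and 3060.0 with shS100A10_1, and 4638 and 3917 with shNCT. The shS100A10_1 arrays were the lowest, and the shS100A10_5 arrays spanned the controls. The change was -0.54 with shS100A10_1 (95% interval -0.99 to -0.09; limma, adjusted p = 0.473, unadjusted p = 0.0223) and -0.05 with shS100A10_5 (limma, adjusted p = 0.917). NBN, the subunit that recruits ATM, had changes of 0.17 with shS100A10_5 and -0.04 with shS100A10_1. The resection nuclease EXO1 had -0.05 and -0.10, and the helicase BLM, which extends resection and dissolves joined molecules, had -0.02 and 0.10. The median of the 5 genes of this role was -0.02 with shS100A10_5 and -0.04 with shS100A10_1.

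Of the checkpoint kinases, which relay the damage signal to the cell cycle, 0 of 4 changed. ATR, activated by single-stranded DNA, had intensities of 44.2 and 90.1 with shS100A10_5, 79.8 and 58.3 with shS100A10_1, and 112.8 and 99.6 with shNCT. All hairpin arrays were below the controls, but the shS100A10_5 replicates lay far apart, with an SD of 0.72 on the log2 scale. The changes were -0.75 with shS100A10_5 (95% interval -1.41 to -0.08) and -0.64 with shS100A10_1 (limma, adjusted p = 0.188 and 0.614). ATM, activated by double-strand breaks through MRN, read 837 and 1232 with shS100A10_5, 730 and 943 with shS100A10_1, and 761 and 767 with shNCT. Its changes were 0.41 and 0.12 (limma, adjusted p = 0.322 and 0.937). The effector kinases had changes within 0.26 of 0: CHEK1 0.12 and 0.03, and CHEK2 -0.01 and 0.25.

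**Figure D2:**
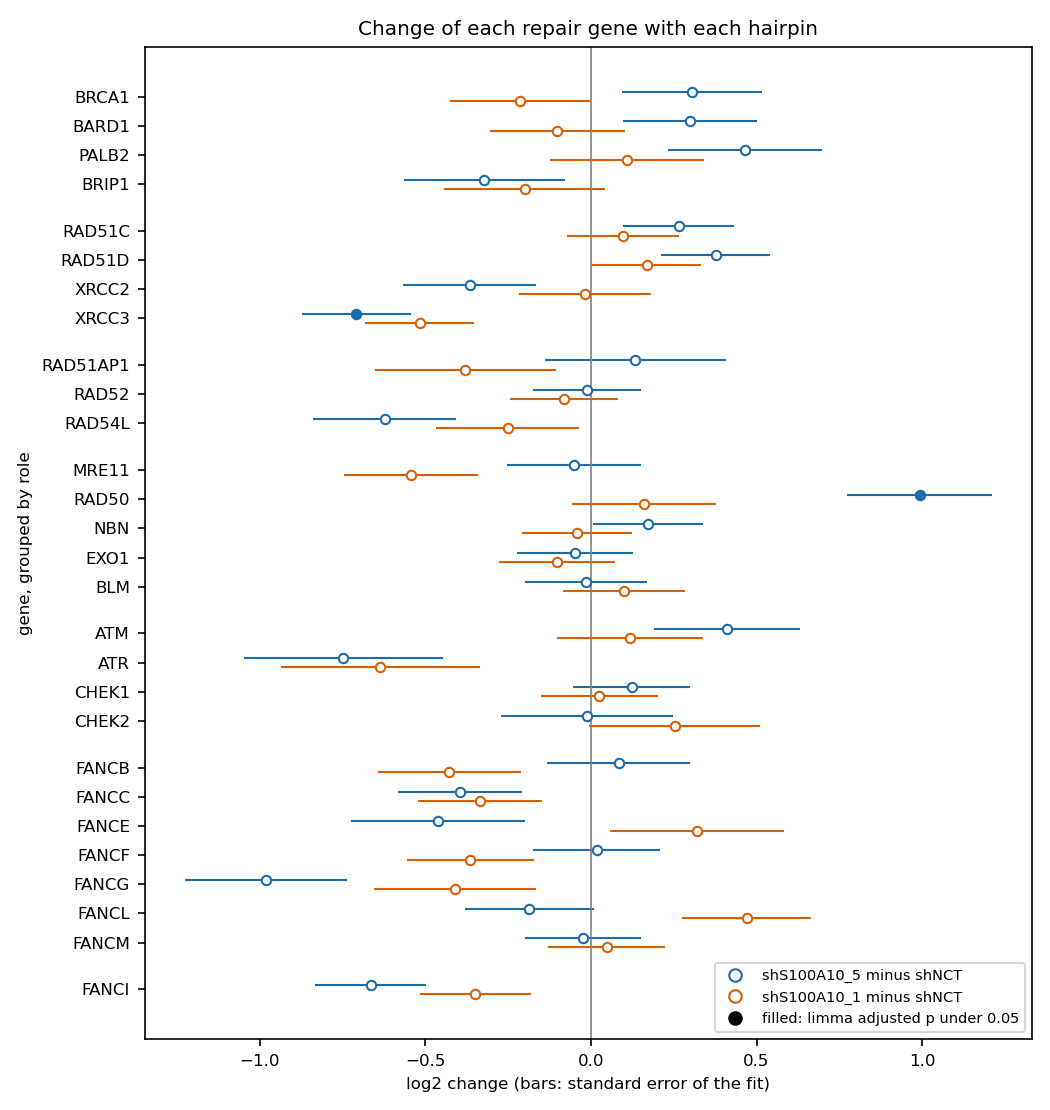
Log2 change of each gene (rows, grouped by role) with shS100A10_5 (blue) and shS100A10_1 (orange) against shNCT, with the standard error of the limma fit as bars; filled points passed an adjusted p of 0.05. Only RAD50 (0.99) and XRCC3 (-0.71) with shS100A10_5 are filled, and FANCG (-0.98) and FANCI (-0.67) lie nearest to the threshold.

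The Fanconi core complex gave 0 calls among 7 measured subunits, with changes of both signs. FANCG, a scaffold subunit, had intensities of 528 and 387 with shS100A10_5, 849 and 530.2 with shS100A10_1, and 938 and 848 with shNCT. The shS100A10_5 arrays were the lowest, while the first shS100A10_1 array reached the level of the controls. Its change with shS100A10_5 was -0.98 (SE 0.25, 95% interval -1.53 to -0.44), about as large as that of RAD50 but with a larger error, and did not pass (limma, adjusted p = 0.0604). With shS100A10_1 it was -0.41 (limma, adjusted p = 0.723).

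FANCL, the subunit that carries the ubiquitin ligase activity, read 158 and 168 with shS100A10_5, 297 and 221 with shS100A10_1, and 199 and 172 with shNCT. The shS100A10_1 arrays were the highest and the shS100A10_5 arrays the lowest. The changes from control were -0.19 with shS100A10_5 and 0.47 with shS100A10_1 (limma, adjusted p = 0.638 and 0.543), and the hairpins differed by -0.66 (95% interval -1.09 to -0.22; limma, adjusted p = 0.105). FANCE, which contacts FANCD2, had changes of -0.46 and 0.32 and a difference between the hairpins of -0.78 (limma, adjusted p = 0.138, unadjusted p = 0.0134). FANCB, a partner of FANCL in the catalytic module, had changes of 0.08 with shS100A10_5 and -0.43 with shS100A10_1. FANCC had -0.39 and -0.34, FANCF 0.02 and -0.36, and FANCM, the helicase that anchors the complex to DNA, -0.02 and 0.05. The arrays of the hairpins did not overlap for 6 of the 7 subunits and for 18 of the 28 members, against 49% of all probe sets.

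FANCI, the measured gene of the ubiquitinated pair, was ordered like XRCC3. It read 621 and 596 with shS100A10_5, 758 and 758 with shS100A10_1, and 1027 and 908 with shNCT. The 3 groups did not overlap. The change was -0.67 with shS100A10_5 (SE 0.17, 95% interval -1.04 to -0.29) and -0.35 with shS100A10_1, and neither passed (limma, adjusted p = 0.0619 and 0.626). With the gene span fit subtracted, the change with shS100A10_5 was -0.75 and passed (limma, adjusted p = 0.0484). FANCG and FANCI both passed when dim probe sets were left out (limma, adjusted p = 0.0384 and 0.0367) and when the variance prior followed intensity (0.0182 and 0.0327). Neither passed with quantile normalization (limma, adjusted p = 0.0805 and 0.0703) or with array weights (limma, adjusted p = 0.09996 and 0.0954). Without shS100A10_5 replicate 2 their changes from control were -0.76 and -0.64.

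**Figure D3:**
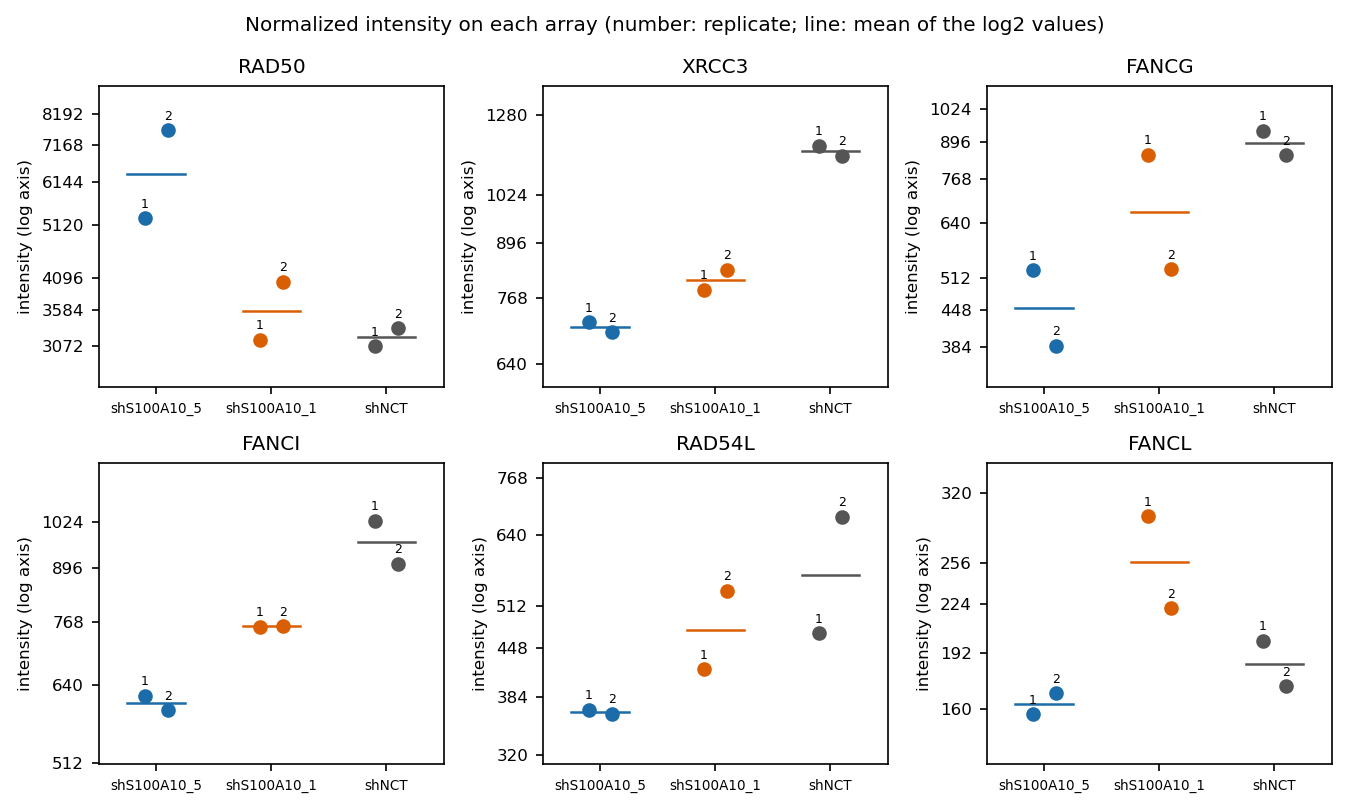
Normalized intensity (log axis, a panel per gene) of RAD50, XRCC3, FANCG, FANCI, RAD54L and FANCL on every array of shS100A10_5, shS100A10_1 and shNCT; points are arrays, numbered by replicate, and lines are the means of the log2 values. RAD50 stands out on both shS100A10_5 arrays (5279 and 7652), XRCC3 and FANCI are lowest with shS100A10_5 and next lowest with shS100A10_1, and FANCL is highest with shS100A10_1.

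Genes that work beside these were read from further lists. The lists were chosen with earlier results of these data known, so their shares of calls are descriptions, and enrichment was not tested. With shS100A10_1, 0 members of any of the 5 lists changed by limma. With shS100A10_5, of 13 measured Fanconi partners 2 fell (15.4%, against 1.75% of all probe sets), and the median change of the list was -0.30. They were FAAP20, which ties the core complex to the ubiquitin signal, and ERCC1, of the nuclease that unhooks crosslinks. FAAP20 read 175 and 129.5 with shS100A10_5, 299 and 223 with shS100A10_1, and 351 and 361 with shNCT, a change of -1.24 with shS100A10_5 (SE 0.21; limma, adjusted p = 0.0193). ERCC1 read 3954 and 3038, 6036 and 5409.6, and 6865 and 6423 in the same order of groups, a change of -0.94 (SE 0.19; limma, adjusted p = 0.0336). Both genes were lowest on the shS100A10_5 arrays without overlap, and their changes with shS100A10_1 were -0.46 and -0.22.

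Of 25 recombination partners, 1 rose with shS100A10_5 (4%, against 1.43% of all probe sets that rose and 3.18% called in either direction), and the median change was -0.19. SFR1, which with SWI5 stabilises the recombinase filament, read 897 and 1069 with shS100A10_5, 624 and 694 with shS100A10_1, and 516 and 469 with shNCT. It rose by 0.99 on the log2 scale (SE 0.18; limma, adjusted p = 0.0242) with shS100A10_5 and had a change of 0.42 with shS100A10_1 (limma, adjusted p = 0.555). The groups did not overlap for SFR1. Its partner SWI5 went the other way, at -0.45 and -1.25 from the shNCT mean on the shS100A10_5 arrays. That change, -0.85, was the lowest of the list and did not pass the threshold. In the list of end joining genes, the pathways that compete with recombination, 0 of 12 changed with either hairpin, and the 2 with the smallest p were PAXX (-0.54 with shS100A10_5; limma, adjusted p = 0.12) and POLQ (0.54 higher with shS100A10_5 than with shS100A10_1; limma, adjusted p = 0.125).

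Of 21 measured checkpoint and chromatin partners, 3 fell with shS100A10_5 (14.3%, against 1.75% of all probe sets), and 2 of these, ABRAXAS1 and BABAM1, belong to the BRCA1-A complex, which holds BRCA1 at ubiquitin marks around a break. ABRAXAS1, its central scaffold, read 623 and 592 with shS100A10_5, 997 and 1066 with shS100A10_1, and 1260.3 and 1462 with shNCT. It fell by 1.16 with shS100A10_5 (SE 0.17; limma, adjusted p = 0.0107), and it was lower than with shS100A10_1 too, by a log2 difference of -0.76 (limma, adjusted p = 0.0463). BABAM1 read 6494 and 5024, 11905 and 10368, and 11290.0 and 12264 in the same order of groups. It fell by 1.04 with shS100A10_5 (SE 0.19; limma, adjusted p = 0.0252) and differed between the hairpins by -0.96 (limma, adjusted p = 0.029). For both genes the shS100A10_5 arrays were far below all others.

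The rest of the BRCA1-A complex was looked up after these values were seen. BABAM2 had a change of -0.49 with shS100A10_5, UIMC1, which reads the ubiquitin chains, 0.63, and the deubiquitinase BRCC3 0.05 (limma, adjusted p = 0.133, 0.101 and 0.915), so the 5 subunits did not share a direction. The third call of the list was H2AX, the histone variant phosphorylated around breaks. It read 10652 and 8424 with shS100A10_5, 16253 and 14269.9 with shS100A10_1, and 16473 and 16966 with shNCT, a fall of 0.82 with shS100A10_5 (log2 change -0.82, SE 0.18; limma, adjusted p = 0.0449). With array weights the calls of H2AX and of ERCC1 were lost (limma, adjusted p = 0.0688 and 0.0507). The median of the whole list was 0.05. Without shS100A10_5 replicate 2, or without either shNCT array, 0 genes of any of the 5 lists passed against control, and with 1 array left out the adjusted p of the difference between the hairpins ran from 0.0625 to 0.188 for ABRAXAS1 and from 0.0368 to 0.170 for BABAM1.

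**Figure D4:**
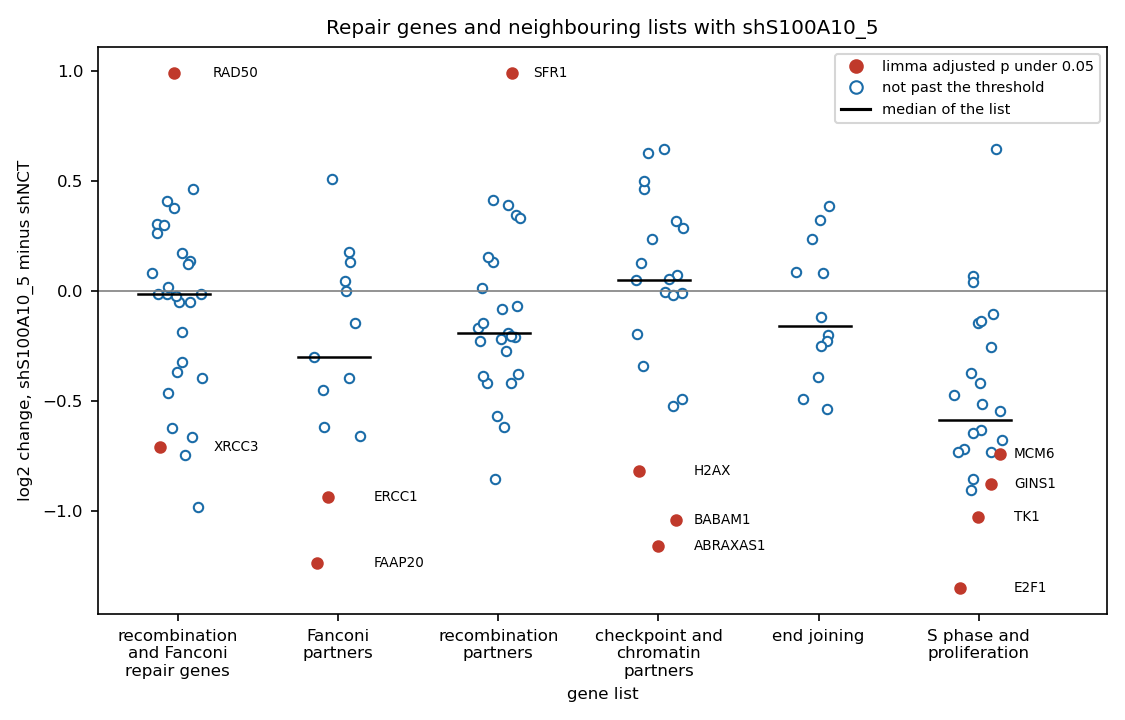
Log2 change with shS100A10_5 against shNCT (vertical axis) of each gene in the recombination and Fanconi list and in 5 neighbouring lists (horizontal axis, points spread sideways for legibility); filled red points passed limma's adjusted p of 0.05 and black lines are medians. The repair list is centred near 0 (median -0.01), the S phase list at -0.59, and the BRCA1-A genes ABRAXAS1 and BABAM1 lie at -1.16 and -1.04.

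Because recombination genes are transcribed mainly in cycling cells, S phase and proliferation genes were set beside them. Of 24 measured, 21 had a negative change with shS100A10_5, against 7929 of all 16965 probe sets, with a median of -0.59. The other 3, MKI67, CCNA2 and MCM4, had a positive change and did not pass. The largest was 0.65 for MKI67, whose shS100A10_5 arrays lay 0.41 and 0.89 above the shNCT mean and did not overlap the controls. Of the 24, 4 fell (16.7%, against 1.75% of all probe sets): E2F1, a transcription factor of S phase entry, by 1.35, the thymidine kinase gene TK1 by 1.03, GINS1 by 0.88 and the helicase gene MCM6 by 0.74 on the log2 scale (limma, adjusted p = 0.0107, 0.0217, 0.0438 and 0.046). With array weights the calls of GINS1 and MCM6 were lost (limma, adjusted p = 0.0638 and 0.0730). With shS100A10_1 the median was -0.08 and 0 changed. E2F1 and the cyclin gene CCNE1 were lower with shS100A10_5 than with shS100A10_1, by log2 differences of -1.03 and -0.83 (limma, adjusted p = 0.0275 and 0.0354); with 1 array left out the adjusted p ran from 0.0341 to 0.132 and from 0.0596 to 0.213. Against control, 0 of the list passed without shS100A10_5 replicate 2, when 3 of all probe sets did; without replicate 1, 9 fell and 1 rose, when 994 of all probe sets passed, against 539 with every array. The repair list's median of -0.01 with shS100A10_5 stood apart in value from the S phase median, and the difference between the lists was not tested. In bulk RNA, fewer cells in S phase and less RNA per cell cannot be told apart, and the part of the cell cycle in the repair genes' values was not tested.

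**Figure D5:**
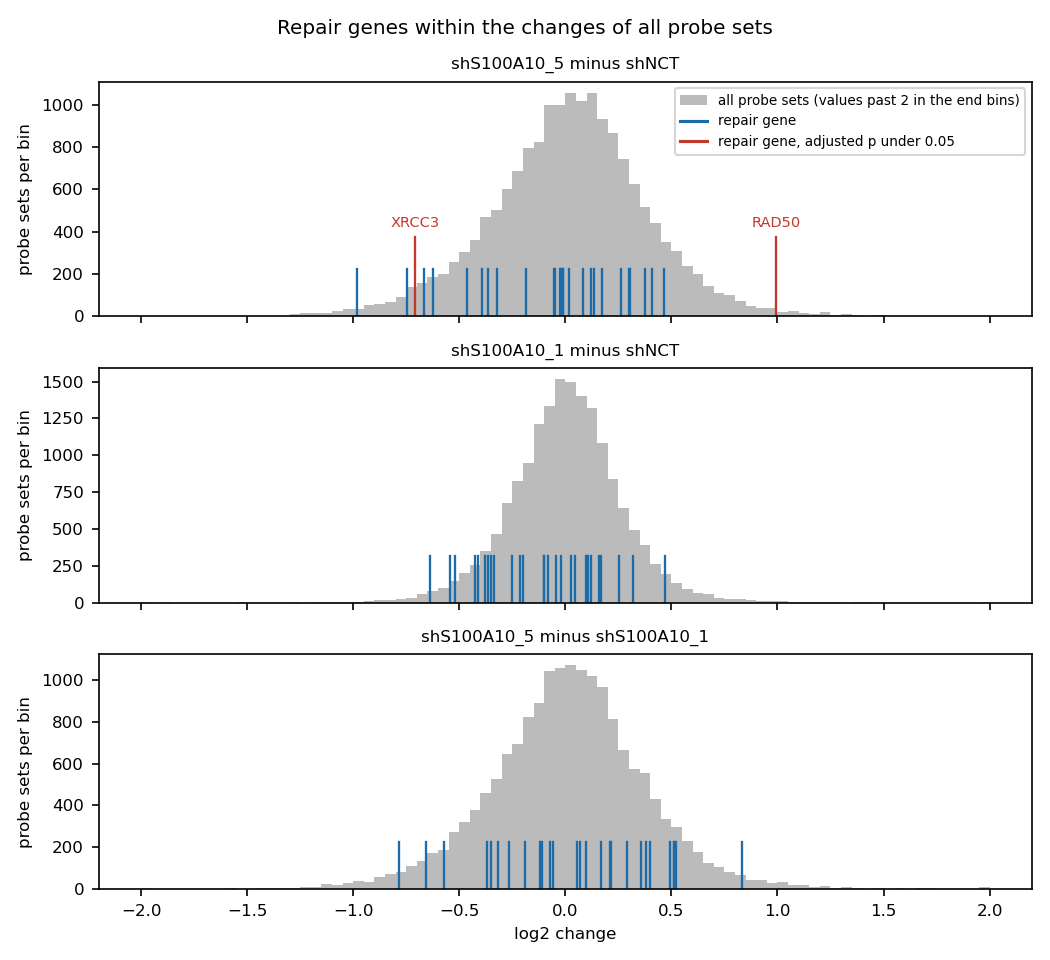
Histograms of the log2 change of all 16965 probe sets (grey, probe sets per bin) in the 3 comparisons, with each repair gene as a coloured line, red where it passed limma's adjusted p of 0.05. The repair genes run from -0.98 to 0.99 with shS100A10_5, from -0.64 to 0.47 with shS100A10_1 and from -0.78 to 0.83 between the hairpins, on both sides of 0 in each panel.

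Differences between the replicates of a group were read for the repair genes too. With shS100A10_5, replicate 2 was above replicate 1 for 20 of the 28 members, against 52.5% of all probe sets, and the median difference was 0.21 on the log2 scale, against 0.02. With shS100A10_1 it was above for 22 of 28 (52.9% of all), with a median of 0.13, and with shNCT for 15 of 28 (50.3%), with a median of 0.02. Across the 28 members this difference followed gene span within shS100A10_5 (Spearman's rho 0.545) and less within shS100A10_1 (0.046) or shNCT (0.196). The genes share the same arrays and are not replicates. A span trend was not particular to the members. Across all genes the deviation from the mean of all arrays followed span at 0.035 on shS100A10_5 replicate 1 and 0.247 on replicate 2. BRCA1, BARD1, PALB2 and ATM lay 0.07 to 0.14 above the shNCT mean on shS100A10_5 replicate 1 and 0.48 to 0.79 above it on replicate 2.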

How the data were processed

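Biotin-labelled total RNA was measured on whole-transcript arrays, per the labels' protocols. The authors deposited normalized intensities on a linear scale, made with Transcriptome Analysis Console per the submitters' processing notes. Its version is not given in the sources used here, nor are the background and normalization steps. Without detection calls or scan dates in the table, neither background nor batch could be assessed. Median intensity was 232 to 238 on all arrays.

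Samples were grouped by title. Intensities were taken to log2 with no further normalization and fitted by lmFit and eBayes of limma 3.58.1 (R 4.3.3), with 1 mean per group over all 6 arrays (3 residual and 7.16 prior degrees of freedom). The contrasts were each hairpin against shNCT and shS100A10_5 against shS100A10_1, tested on both sides, with Benjamini-Hochberg adjustment over 16965 probe sets and a threshold of 0.05. The platform annotation gave 15674 probe sets 1 gene symbol and 1291 none; all 15674 matched the RefSeq table of GRCh38.p14, used for names, gene span and promoters. The array's own build was not named. The fit was tested on simulated data.

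Members and lists were chosen with earlier results of these data known. Values on every array are given for S100A10, BRCA1, the members past the threshold and, in each role, the 2 with the smallest unadjusted p; from the other lists, the genes past the threshold or else the 2 with the smallest p are named. Promoters of 4 members, those with the smallest p and a window, were printed. Alternatives were other scalings, filters, variance priors, array weights, a replicate block, removal of a gene span trend, and leaving out each array.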

Additional observations from a re-analysis of the deposited data

Results flagged for a closer look

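By limma's test of the difference itself, shS100A10_5 minus shS100A10_1, the hairpins differed in 5 of the genes named here, none of them a measured recombination or Fanconi gene of the list. S100A10 differed by 2.70 on the log2 scale (limma, adjusted p = 0.00102). The BRCA1-A complex genes ABRAXAS1 and BABAM1 differed by -0.76 and -0.96 (limma, adjusted p = 0.0463 and 0.029). Both missed the threshold with only the groups compared (limma, adjusted p = 0.0735 and 0.0517), and ABRAXAS1 also missed it with array weights (0.0765). The S phase genes E2F1 and CCNE1 differed by -1.03 and -0.83 (limma, adjusted p = 0.0275 and 0.0354). Over the settings that kept every array, the limma adjusted p reached 0.0476 for E2F1 and 0.0626 for CCNE1, which missed the threshold there. With 2 arrays a group, no single array could be tested as standing apart from the rest of its group.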

How the results depend on the processing

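With shS100A10_1 0 repair genes were called under every setting run. With shS100A10_5 the count of 2 became 1 with quantile normalization, median centring or robust eBayes, and 0 with array weights. It became 3 with the gene span trend removed, and 4 with dim probe sets left out, an intensity trend or an adjusted p threshold of 0.1. With only the groups compared it stayed 2, but these were RAD50 and FANCG (limma, adjusted p = 0.0341 and 0.0314), and XRCC3 missed (0.0687). Of all probe sets, 242 to 1454 were called over the settings that kept every array, against 539 in the main fit. That range was 16 to 98 with shS100A10_1 (main fit 32) and 287 to 1144 between the hairpins (main fit 494). Neither RAD50 nor XRCC3 passed without either shNCT array or shS100A10_5 replicate 2, fits that leave 1 array in a group. Between the hairpins the count of 0 became 1 with dim probe sets left out, an intensity trend, the replicate block or a threshold of 0.1, and ran from 0 to 2 with 1 array left out (2 without shS100A10_5 replicate 1). The replicate block gave 2 calls with shS100A10_5, RAD50 and FANCG (limma, adjusted p = 0.0254 and 0.0287), and XRCC3 missed (0.0545); same-numbered arrays correlated at -0.035 to 0.188. Over all settings other than leaving out an array, the limma adjusted p of XRCC3 ran from 0.0214 to 0.0765 and that of RAD50 from 0.00524 to 0.065. Of the other named genes called with shS100A10_5, H2AX, ERCC1, GINS1 and MCM6 missed the threshold with array weights (limma, adjusted p = 0.0688, 0.0507, 0.0638 and 0.0730), and H2AX and MCM6 also missed it with quantile normalization, median centring and only the groups compared, and MCM6 with the replicate block. The median change ran from -0.11 to 0.12 with shS100A10_5, from -0.16 to -0.02 with shS100A10_1 and from -0.050 to 0.19 between the hairpins as single arrays were left out. Of the single genes, 12 values turned sign, all with 1 array left out. With shS100A10_1 against shNCT these were ATM (-0.066, range -0.066 to 0.30 as single arrays were left out), PALB2 (-0.080, range -0.080 to 0.30), RAD50 (-0.015, range -0.015 to 0.34) and BABAM1 (0.017, range -0.18 to 0.017) without shS100A10_1 replicate 2, and MCM6 (0.052, range -0.11 to 0.052) and RAD54L (0.014, range -0.52 to 0.014) without shNCT replicate 2. With shS100A10_5 against shNCT they were RAD51AP1 (-0.19 without shS100A10_5 replicate 2 and -0.0011 without shNCT replicate 2, up to 0.46) and MRE11 (0.18 without shS100A10_5 replicate 1 and 0.071 without shNCT replicate 1, down to -0.28). Between the hairpins ATR was 0.40 without shS100A10_5 replicate 1 and 0.11 without shS100A10_1 replicate 1, and -0.62 at the lowest. The causes were not tested. With no detection calls, how far low signals limit these changes is not known.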
